A study of Rattus norvegicus with 48 samples.

Results

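Acyl-CoA dehydrogenases are the flavoenzymes that carry out the first oxidation of each turn of fatty acid beta-oxidation, and each prefers acyl-CoAs of a certain chain length. The 7 members that act on fatty acids were followed in rat cerebral endothelial cells (CECs): Acads for short chains, Acadm for medium chains, Acadl for long chains, Acadvl for very long chains, Acad9 for long chains, and Acad10 and Acad11, whose substrates are less well defined. They were chosen by gene symbol, not by their counts, and are 7 of the 32624 features listed. All 7 had a read in each sample and so were among the 13050 genes tested.

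CECs were sorted from the cortex of male Wistar-Han rats that were fed ad libitum (AL) or had no food for 1 day (F1), 2 days (F2) or 3 days (F3). There were 3 samples in each of the 4 groups, named i, j and k, and each sample came from pooled cortices, so that no value belongs to a single rat. No treatment other than the fast is named for any group. Each sample held 4 technical replicates, whose counts were added, which gave 20718644 to 25960874 reads assigned to genes per sample. Levels are given as read counts normalized for library size by TMM (trimmed mean of M values).

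Electrons taken from the acyl-CoA pass by way of the electron transfer flavoprotein to the respiratory chain. Acadm, Acadl and Acadvl are well known targets of peroxisome proliferator-activated receptors (PPARs) in liver, heart and muscle, tissues that burn fatty acids during a fast. Acad9 has a separate role as an assembly factor of respiratory complex I. Brain endothelium is better known for its use of glucose.

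PPARs bind, as dimers with the retinoid X receptor, to a direct repeat of the half-site AGGTCA with 1 base between the copies. The 250 bases before the RefSeq gene start (assembly GRCr8) were searched on both strands for the half-site and for that repeat, and 6 of the 7 genes had an entry. The sequences shown are those of Acadm and Acad9, whose mRNA was higher after a fast, of Acad11, whose mRNA was lower, and of Acadvl, which did not pass the test. Capitals mark the half-site on either strand. The windows are chr2:245542865-245543114, minus strand, for Acadm, chr2:120871079-120871328, plus strand, for Acad9, chr8:113559962-113560211, plus strand, for Acad11, and chr10:55236706-55236955, minus strand, for Acadvl.
Acadm, 250 bases before the start: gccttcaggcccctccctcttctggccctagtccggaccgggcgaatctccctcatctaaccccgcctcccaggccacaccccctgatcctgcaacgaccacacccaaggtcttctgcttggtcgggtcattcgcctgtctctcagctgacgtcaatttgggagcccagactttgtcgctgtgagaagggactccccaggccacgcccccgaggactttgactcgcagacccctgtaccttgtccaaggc
Acad9, 250 bases before the start: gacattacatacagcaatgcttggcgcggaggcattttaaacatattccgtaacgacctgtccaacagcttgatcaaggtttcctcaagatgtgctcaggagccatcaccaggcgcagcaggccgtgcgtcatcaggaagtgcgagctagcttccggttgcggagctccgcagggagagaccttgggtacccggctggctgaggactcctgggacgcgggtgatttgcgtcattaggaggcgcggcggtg
Acad11, 250 bases before the start: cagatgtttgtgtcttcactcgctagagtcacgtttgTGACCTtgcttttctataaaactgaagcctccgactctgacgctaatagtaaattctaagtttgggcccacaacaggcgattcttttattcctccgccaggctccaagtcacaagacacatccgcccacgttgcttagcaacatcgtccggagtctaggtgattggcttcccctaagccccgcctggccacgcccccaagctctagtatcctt
Acadvl, 250 bases before the start: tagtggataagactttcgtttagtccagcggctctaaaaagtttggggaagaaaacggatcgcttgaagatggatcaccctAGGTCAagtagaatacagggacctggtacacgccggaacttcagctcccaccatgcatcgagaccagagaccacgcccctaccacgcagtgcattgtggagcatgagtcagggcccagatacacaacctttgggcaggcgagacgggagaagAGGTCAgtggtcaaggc
Acadvl held 2 half-sites and Acad11 held 1, while Acads, Acadm, Acad9 and Acad10 held 0. A half-site was found in 14.1% of the 33469 promoters of the same length, and 2 or more in 1.27%. The full repeat was found in 0.051% of these promoters and in none of the 6 members. Only exact copies were counted, so a repeat with a changed base was left out. The end of the Acadvl window holds such a stretch, AGGTCA followed after 1 base by tggtca. Repeats with a changed base were not searched for in the other windows or over all promoters. These letters are a description of the windows and say nothing of binding. The GC content of the 6 windows ran from 50.8% in Acad11 to 77.2% in Acad10, against a median of 51.2% over all promoters.

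The study asked how fasting changes the mRNA of CECs, and each day was compared with AL. In F1 rats Acadm and Acad9 rose and Acad11 fell, that is 2 of 7 members called higher, where 3.92% of all genes tested were called higher, and 1 called lower, where 2.64% were. In F3 rats Acadm, Acadl and Acad9 rose and Acad11 fell, which is 3 higher against 6.28% of all genes and 1 lower against 5.73%. In F2 rats 0 members passed the threshold with edgeR, where 0.536% of all genes were called higher and 0.383% lower, although 6 of the 7 had an unadjusted p under 0.05, as did 13% of all genes. DESeq2 called 2 members in F2 rats, Acads and Acad9, and 2.75% of all genes. The median log2 fold change (LFC) of the 7 members was 0.12 in F1, 0.21 in F2 and 0.28 in F3 rats, against -0.004, -0.008 and -0.005 over all genes tested. In the joint test of the 4 groups 3 members passed, Acadm, Acad9 and Acad11, where 9.98% of all genes did. The 3 comparisons use the same AL samples.

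**Figure D1:**
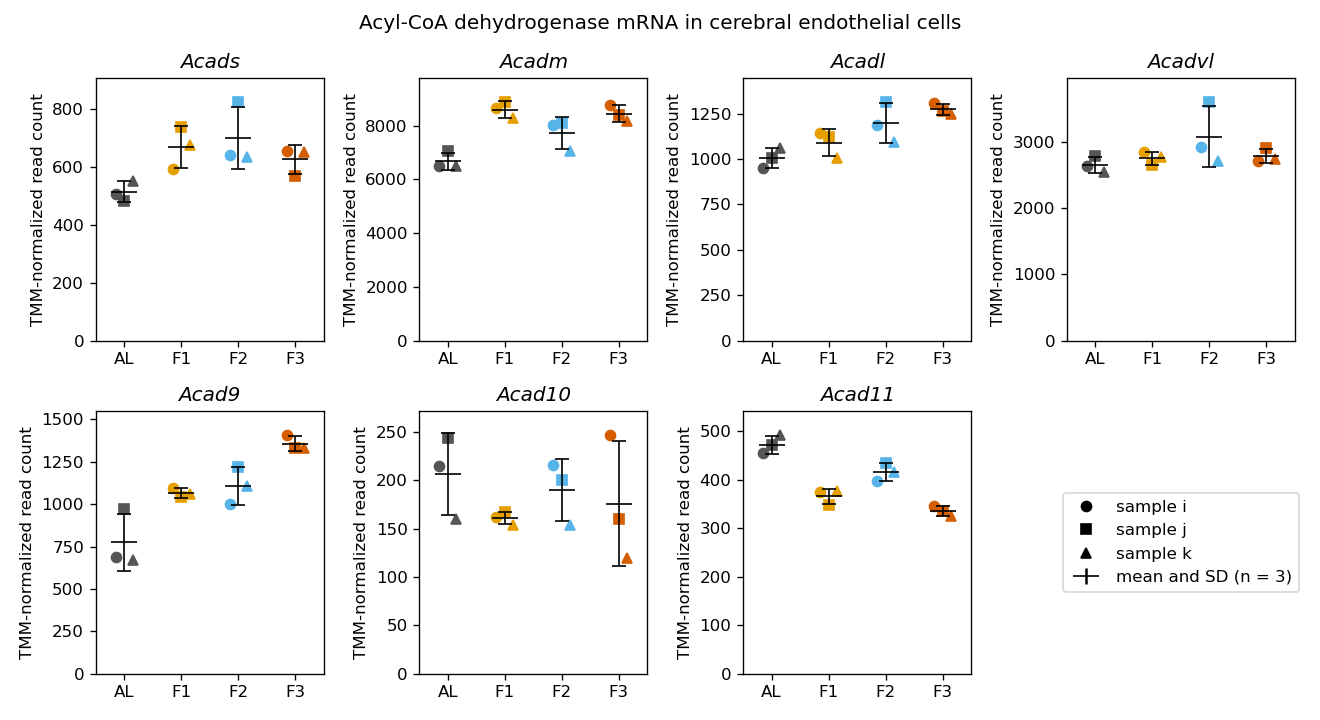
TMM-normalized read counts of the 7 genes in the 12 samples; each panel is 1 gene, the x axis gives the group, the y axis starts at 0, points are samples i, j and k, and bars are the mean and SD of 3 samples. Acadm, Acads and Acad9 lie higher in fasted samples than in AL, with the exception of F2 sample k for Acadm, and Acad11 lies lower.

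Acadm encodes the medium-chain enzyme (MCAD). Its normalized count was 6494, 7047 and 6503 in the AL samples i, j and k, 8654, 8872 and 8275 in F1, 8042, 8083 and 7040 in F2, and 8780, 8379 and 8188 in F3. All F1 and F3 samples lay above all AL samples, whereas F2 sample k was level with AL sample j. Acadm rose in F1 rats by an LFC of 0.36 (SE 0.07; Benjamini-Hochberg adjusted p = 0.0117 in the quasi-likelihood test of edgeR) and of 0.34 in F3 rats (0.07, adjusted p = 0.00940 from the same edgeR test). Its LFC of 0.21 in F2 rats did not pass. The F1 call was lost without AL sample i (adjusted p = 0.0511 with edgeR) or F1 sample j (0.0631), and the F3 call without F3 sample i (0.0513). Its call in the joint test was lost without AL sample i (adjusted p = 0.0732 with edgeR), AL sample k (0.0731) or F1 sample j (0.0511).

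Acadl encodes the long-chain enzyme (LCAD). It had 951, 1004 and 1063 normalized counts in AL, 1145, 1123 and 1004 in F1, 1190, 1314 and 1095 in F2, and 1308, 1266 and 1249 in F3. The F2 and F3 samples lay above all AL samples, while F1 sample k lay inside the AL range. Acadl rose in F3 rats by an LFC of 0.34 (SE 0.08, adjusted p = 0.0153 with edgeR), a call that was lost without AL sample i (0.0709) or F3 sample i (0.0676). In the joint test its adjusted p of 0.0505 with edgeR fell just short. It passed with DESeq2 (0.00730), the size factors of DESeq2 in edgeR (0.0439), the filter of filterByExpr (0.0394), and without technical replicate d of F1 sample k (0.0476), F2 sample j (0.0212) or F2 sample k (0.0324). A robust estimate of the spread, run after these values had been seen, gave 0.0485.

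Acads encodes the short-chain enzyme (SCAD). Its normalized count was 505, 482 and 552 in AL, 592, 738 and 675 in F1, 641, 822 and 635 in F2, and 655, 568 and 651 in F3. Every fasted sample lay above every AL sample. The LFC of 0.38 in F1, 0.45 in F2 and 0.28 in F3 rats did not pass with edgeR (adjusted p = 0.0719, 0.107 and 0.139). DESeq2 gave adjusted p = 0.0332 in F1 and 0.0204 in F2 rats. With edgeR, Acads passed in F1 rats with only the 6 samples compared (0.0460) and without F2 sample j (0.0195), and in F3 rats without F2 sample j (0.0489). The study, which tested with DESeq2, reported the mRNA of both Acads and Acadl as higher after fasting. It also reported both proteins as raised in cultured CECs by a PPAR δ agonist, with p-values not adjusted for multiple testing.

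Acadvl encodes the very long-chain enzyme (VLCAD) of the inner mitochondrial membrane. It had 2627, 2786 and 2542 normalized counts in AL, 2840, 2645 and 2762 in F1, 2917, 3595 and 2715 in F2, and 2712, 2902 and 2741 in F3. The groups overlapped, and F2 sample j stood highest. The LFC was 0.05 in F1 (95% confidence interval -0.14 to 0.25), 0.21 in F2 (0.02 to 0.41) and 0.07 in F3 rats (-0.13 to 0.27), with none past the adjusted threshold in edgeR. Without F2 sample j, the LFC in F2 rats was 0.09.

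Acad9 had the highest LFC of the 7 in each comparison with AL. Its normalized count was 690, 970 and 668 in AL, 1098, 1040 and 1059 in F1, 998, 1222 and 1107 in F2, and 1407, 1334 and 1331 in F3. AL sample j stood above the other AL samples but below all fasted samples, and the F3 samples lay above all others. Acad9 rose by an LFC of 0.81 in F3 rats (SE 0.12, adjusted p = 0.00102 with edgeR), a fold of 1.75. It rose by an LFC of 0.46 in F1 rats (SE 0.12, adjusted p = 0.0421 with edgeR). The F1 call did not hold with total counts as scaling (0.0554), with only the 6 samples compared (0.0617), or without any 1 of 9 of the samples (up to 0.156, without AL sample i). In F2 rats its LFC of 0.51 missed the threshold (adjusted p = 0.0733 with edgeR) and passed without AL sample j (0.00399).

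Acad11 was the member that fell. It had 455, 471 and 492 normalized counts in AL, 374, 349 and 376 in F1, 397, 435 and 417 in F2, and 346, 335 and 326 in F3. All fasted samples lay below all AL samples, with F2 between F1 and AL and F3 lowest, without overlap among the 4 groups. The LFC was -0.37 in F1 rats (SE 0.08, adjusted p = 0.0169 with edgeR) and -0.49 in F3 rats (0.08, adjusted p = 0.00168 with edgeR). The F1 call was lost without AL sample k (0.0641) or F1 sample j (0.0862). In F2 rats the LFC of -0.18 did not pass. Ackr4, a chemokine receptor gene that overlaps Acad11 in RefSeq, had only 4 to 16 reads per sample.

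Acad10 had the lowest count of the 7, from 120 to 247 normalized counts over the 12 samples. Its values were 215, 244 and 160 in AL, 163, 167 and 154 in F1, 217, 200 and 154 in F2, and 247, 160 and 120 in F3. The F3 samples held both the lowest and the highest value, and no comparison passed the test. The 95% confidence interval of its LFC in F3 rats ran from -0.73 to 0.26.

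Counted by overlap alone, 3 members lay wholly above AL in F1 rats, where 14.6% of all genes did, and 1 lay wholly below, where 14.1% did. In F2 rats 3 lay above (6.89% of all genes) and 1 below (8.66%). In F3 rats 4 lay above (17.6% of all genes) and 1 below (18%).

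**Figure D2:**
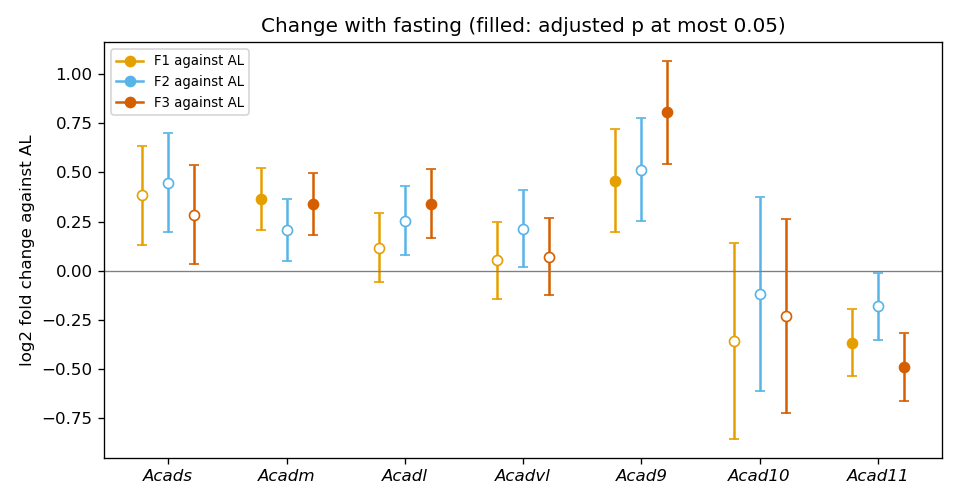
Log2 fold change of each gene against AL, with its 95% confidence interval from edgeR, for F1, F2 and F3 rats; filled points passed an adjusted p of 0.05. Acad9 in F3 rats is the highest point at 0.81 and Acad11 in F3 rats is the lowest at -0.49.

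Between the fasted groups, Acad11 was lower in F3 than in F2 rats (LFC -0.31, standard error 0.08, adjusted p = 0.0396 with edgeR), the 1 member called of 7, where 2.3% of all genes were called lower and 3.58% higher. This call was lost in 12 of 22 alternatives, among them the replicate block (0.0620) and the fit of only the 6 samples compared (0.144), so it stands close to the threshold. F2 and F1 rats differed in 0 members, where 0.406% of all genes were called higher and 0.935% lower. F3 and F1 rats differed in 0 members, where 0% of all genes were called higher and 0% lower with edgeR, 586 genes had an unadjusted p under 0.05, and DESeq2 called 24. With an unadjusted p under 0.05 there was 1 member between F2 and F1 rats, near the share of 17.4% of all genes, and there were 2 between F3 and F1 rats, where 4.49% of all genes had one.

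To compare the enzymes by chain length, the log2 ratio of the raw counts of 2 genes was taken within each sample, which needs no scaling between samples. A ratio also carries the unequal lengths of the transcripts, so only its change between groups is read. The 6 pairs of Acads, Acadm, Acadl and Acadvl were each tested across the 4 groups with an exact permutation test over the 12 samples, with p-values adjusted over the 6 pairs. Of these, 2 passed, and both hold Acadm.

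The log2 ratio of Acadvl to Acadm was -1.33 ± 0.03 in AL, -1.65 ± 0.09 in F1, -1.33 ± 0.15 in F2 and -1.60 ± 0.09 in F3 rats (SD, n = 3; exact permutation p = 0.00753, adjusted p = 0.0386). Relative to Acadm mRNA, Acadvl mRNA was thus lower in F1 and F3 samples, none of which overlapped AL, and level with AL in F2. Acadvl itself did not fall, with an LFC of 0.05 in F1 and 0.07 in F3 rats, while that of Acadm was 0.36 and 0.34. The log2 ratio of Acadl to Acadm was -2.73 ± 0.11 in AL, -2.98 ± 0.06 in F1, -2.69 ± 0.07 in F2 and -2.73 ± 0.02 in F3 rats (SD, n = 3; exact permutation p = 0.0129, adjusted p = 0.0386). It was lower in F1 and level with AL in F2 and F3. With 3 samples against 3, a single day against AL cannot go below p = 0.1, which both ratios reached in F1 rats (two-sided exact permutation test). Both calls were lost when labels were permuted only within a sample letter (adjusted p = 0.0972), and both without AL sample i (0.0512), F1 sample k (0.0705), F2 sample k (0.0563), F3 sample i (0.0505) or F3 sample k (0.0512). The call of Acadl to Acadm was also lost without F2 sample j (0.0625).

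The other pairs did not pass. The ratio of Acadvl to Acadl was 1.40 ± 0.12 in AL and 1.13 ± 0.07 in F3 rats (SD, n = 3; exact permutation p = 0.0579 over the 4 groups, adjusted p = 0.0918). The ratio of Acadl to Acads had an exact permutation p of 0.0612, that of Acadvl to Acads 0.159 and that of Acadm to Acads 0.189.

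**Figure D3:**
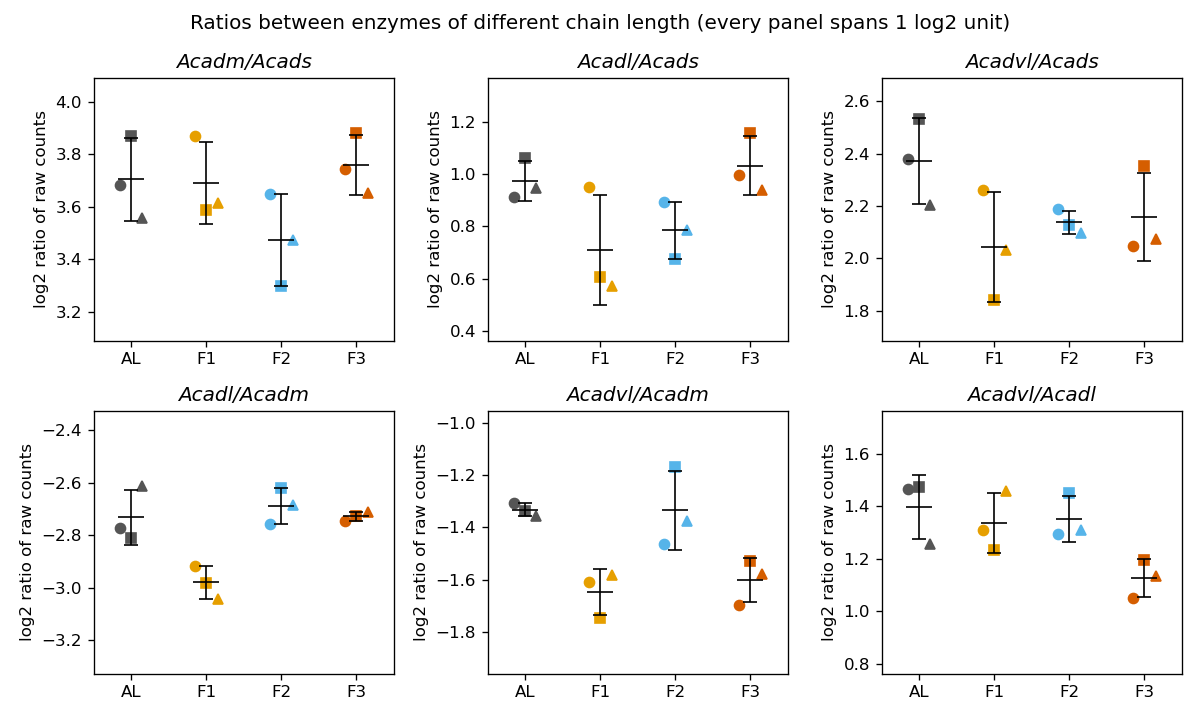
Log2 ratio of raw read counts for the 6 pairs among the short-, medium-, long- and very long-chain enzymes; points are the 12 samples, bars are the mean and SD of 3, and every panel spans 1 log2 unit. Acadvl/Acadm falls from -1.33 in AL to -1.65 in F1 and -1.60 in F3.

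The acyl-CoA dehydrogenases of amino acid breakdown were measured for 2 of 4 listed genes, and neither passed. Acadsb, the short/branched-chain enzyme of isoleucine breakdown, had an LFC of -0.29, -0.25 and -0.36 in F1, F2 and F3 rats. Acad8, which acts in valine breakdown, had an LFC of 0.06, 0.11 and 0.02. No test compared these with the fatty acid enzymes.

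Of the genes that activate fatty acids or govern their entry into mitochondria, 5 of 13 could be matched: Acsl1, Acsl3, Acsl4, Acsl5 and Acacb. The carnitine shuttle genes were not matched. Among these are Cpt1a and Cpt2, whose mRNA the study reported as higher after fasting, so the list says little of entry into mitochondria. Of the 5 matched genes, 2 fell in F1 and in F3 rats while 0 passed in F2. Acsl1, a long-chain acyl-CoA synthetase, fell by 0.30 in F1 and by 0.36 in F3 rats on the log2 scale (adjusted p = 0.0434 and 0.0118 with edgeR). Acsl3, a synthetase linked to lipid droplets, fell by 0.35 and by 0.42 (adjusted p = 0.0375 and 0.0105 with edgeR). Acsl3 also stood higher in F2 than in F1 rats, with an LFC of 0.43.

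Of the later steps of mitochondrial beta-oxidation 2 of 10 listed genes were matched, the thiolases Acaa2 and Acat1, and 0 passed in any comparison with AL. Of peroxisomal beta-oxidation 8 of 15 were matched, and 0 passed in F1 or F2 rats with edgeR. The electron transfer genes and the complex I assembly partners of Acad9 had 0 matched identifiers and were not analysed here.

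Of the PPAR receptors and known targets 3 of 13 were matched. Angptl4, a secreted inhibitor of lipoprotein lipase, rose by an LFC of 0.49 in F1 and 0.58 in F3 rats (adjusted p = 0.0123 and 0.00232 with edgeR). Slc16a1, the monocarboxylate transporter MCT1 that carries ketone bodies, rose by 0.56, 1.26 and 0.79 in F1, F2 and F3 rats (adjusted p = 0.0296, 0.00298 and 0.00258 with edgeR). Acot2, a mitochondrial acyl-CoA thioesterase, passed the joint test (adjusted p = 0.0324 with edgeR) and no comparison with AL.

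The genes whose log2 normalized read counts (CPM) followed a member most closely over the 12 samples were taken from 1263 with a symbol. They are given as a description, since they share the same libraries. Only 2043 of the 13050 genes tested had a symbol in the gene tables as read here, and most of those seen here begin with A, B or C. A gene without a symbol may follow a member more closely. They were Adgrg1, Baiap2 and Anks1a for Acadm (Pearson r = 0.960, 0.957 and 0.953), Arhgef15, Afap1l1 and Casp1 for Acad11 (0.951, 0.939 and 0.937), Alas1, Slc2a1 and Caskin1 for Acad9 (0.928, 0.905 and 0.895), and B4galt4, Anapc7 and Abca7 for Acadl (0.781, 0.779 and 0.776).

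In a bulk sample, fewer cells of a type and less RNA per cell cannot be told apart. The 7 matched endothelial markers summed to 700746 to 747905 normalized counts in AL and 800858 to 847194 in fasted samples, with Slc2a1 higher and Cav1 lower in F1 and F3 rats. Without Slc2a1 the sum of the other 6 was 430823 to 443426 in AL and 425042 to 458964 in fasted samples. The 4 matched pericyte and smooth muscle markers summed to 2701 to 6512 in AL, 3020 to 3401 in F1, 3662 to 6871 in F2 and 2483 to 6484 in F3 rats, and the 3 matched astrocyte markers to 4438 to 8830, 4406 to 5496, 6360 to 7830 and 3871 to 6970. The 6 microglial markers summed to 56.7 to 133.6 over the 12 samples, the oligodendrocyte marker Aspa to 15.6 to 34.1 and the red blood cell marker Alas2 to 36.1 to 110.3, and 0 neuronal markers were matched. None of these non-endothelial markers passed with edgeR in a comparison with AL. Their part in the members' values was not tested.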

How the data were processed

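Per the labels and the study's methods, the authors sorted CD31-positive cells after removing CD11b-positive cells and sequenced the RNA. The submitters' processing notes name Rnor_6.0, STAR and HTSeq 0.5.3. The deposited values are raw read counts of the 48 technical replicates, 4 for each of 12 biological samples, which were added. Strand use in counting is not given in the sources used here, so overlapping genes cannot be told apart. Symbols came from the study's gene tables as read here, which covered 2043 of 13050 genes tested. That is a limit of what was read here, since the study itself named genes not matched here, such as Ppard and Cpt1a. The matched genes named here begin with A, B or C, apart from Slc2a1 and Slc16a1. A listed gene without a symbol was not matched, whatever its reads. Technical replicate d of F1 sample k carries conflicting labels and was kept in F1.

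A gene entered the test if it had a read in every one of the 12 samples. The test was that of edgeR 4.0.16 in R 4.3.3 (TMM, glmQLFit with its default, non-robust estimate of the spread, glmQLFTest), in 1 model with 4 group means. Benjamini-Hochberg adjustment covered every gene tested, and 0.05 was the threshold. The named genes were the 7 members, listed pathway genes past the threshold against AL or, failing that, the most abundant of a list, and the 3 genes with a symbol and a mean of at least 100 normalized counts most correlated with each called member. The exact permutation test of the ratios enumerated 369600 labellings. Alternatives were other scalings and filters, DESeq2 1.42.0, a replicate block, only the 6 samples compared, each sample or technical replicate d left out, and 0.5 added to counts for the ratios. A robust estimate of the spread was added after the results had been seen. The edgeR fit and the ratio test were tested on simulated data. The members and lists were chosen with earlier results of these data known. Per the study's methods, the samples of a group came from independent experiments, and the labels do not tie a sample letter to an experiment. The result of 1 listed pathway gene is not reported here.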

Additional observations from a re-analysis of the deposited data

Results flagged for a closer look

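The change of Acad11 differed between 2 and 3 days of fasting: it was lower in F3 than in F2 rats, by an LFC of -0.31 (SE 0.08; Benjamini-Hochberg adjusted p = 0.0396 in the quasi-likelihood test of edgeR). All 3 F3 samples lay below all 3 F2 samples. The adjusted p ranged from 0.0206 with DESeq2 to 0.144 with only the 6 samples compared.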

How the results depend on the processing

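The calls of Acad9 and Acad11 in F3 rats held in all 22 alternatives with edgeR or DESeq2. Without single samples, the number of members called was 0 to 4 in F1, 0 to 1 in F2, 2 to 5 in F3, 0 to 1 between F3 and F2, 0 between F2 and F1 and between F3 and F1, and 2 to 4 in the joint test. F1 had 0 without F1 sample j, and F3 had 2 without F3 sample i. In F2 rats no filter on low counts called 1 and DESeq2 called 2 of the members, and DESeq2 called 5 in the joint test. Between F3 and F2 the count was 0 with no filter, with the replicate block and with only the 6 samples compared. The robust estimate of the spread, added after the results had been seen, changed 1 call, that of Acadl in the joint test (0.0485); the cause was not tested. After the group mean of each gene was taken from its log2 CPM, samples of different groups were correlated. Same-letter pairs had r from -0.02 to 0.14 (median 0.0285), over 0.1 in 2 of 18 pairs, and other pairs had a median r of -0.0255. For 5 of 12 samples the best match in another group had the same letter. The labels do not say whether a letter marks 1 of the independent experiments named in the methods, and these correlations do not settle it. With the replicate block, the adjusted p of Acad11 between F3 and F2 was 0.0620 and that of both ratio calls 0.0972, and the block changed no other call. Without single samples the adjusted p of the ratios ran from 0.0152 to 0.0705 for Acadl to Acadm, 0.0222 to 0.0705 for Acadvl to Acadm, 0.0326 to 0.215 for Acadl to Acads, 0.0342 to 0.227 for Acadvl to Acadl, 0.0732 to 0.441 for Acadvl to Acads and 0.124 to 0.524 for Acadm to Acads. Values near 0 changed sign: the LFC of Acadvl in F1 against AL was -0.008 with total counts. Without single samples, the LFC of Acad10 ran from -0.268 to 0.012 in F2 against AL, from -0.441 to 0.096 in F3 against F2 and from -0.203 to 0.338 in F3 against F1. That of Acads in F2 against F1 ran from -0.068 to 0.141, that of Acad9 from -0.018 to 0.128, and that of Acadvl in F3 against F1 from -0.012 to 0.043.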
